A study of Homo sapiens with 6 samples.

Results

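The 10 genes described here are the transcriptional coactivators YAP1 and WWTR1 (the gene of TAZ), their DNA-binding partner TEAD1, the kinases LATS1 and LATS2, and CTGF, CYR61, ANKRD1, AMOTL1 and AMOTL2, which are grouped with their target genes. They were chosen by symbol, and all 10 were found once each among the 30960 genes of the table, CTGF and CYR61 under these older names (now CCN2 and CCN1). The cells were HEK293, a human embryonic kidney line, transfected with a plasmid one day after plating and harvested 48 h later, at 158 ng of plasmid per square centimetre. In the PKI group the plasmid encoded GFP fused to PKI1-24, a stretch of the protein kinase inhibitor PKI, and in the inPKI group GFP fused to inPKI1-24, the study's control. Each group held 3 libraries, A, B and C, and no separate untransfected group was analysed. Whether the libraries of a group stem from different cultures is not in the labels. The p-values therefore refer to the variation between these 6 libraries, part or all of which may be technical.

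The Hippo pathway is a kinase cascade that restrains growth. Its last kinases, LATS1 and LATS2, phosphorylate YAP and TAZ, which are then held in the cytoplasm or degraded. Unphosphorylated YAP and TAZ enter the nucleus, bind TEAD factors and switch on genes such as CTGF, CYR61 and ANKRD1, and among the genes they switch on are inhibitors of the pathway's output, LATS2 and AMOTL2. Protein kinase A (PKA), which cAMP activates and PKI blocks, is known to promote phosphorylation of YAP through LATS kinases, and the comparison of PKI with inPKI bears on RNA of these genes in that setting. Phosphorylation and nuclear entry leave no direct trace in RNA levels and were not measured.

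The promoters of the members were searched for the motif of TEAD factors. The TEAD motif was searched as GGAATG, whose reverse complement is CATTCC, on both strands of RefSeq windows reaching from 250 bases before to 50 bases after a start site (GRCh38.p14). Windows were found for 8 of the 10 members, 11 windows in all, and TEAD1 and CYR61 had none. The motif was found in 5 of the 11 windows, against 14% of all 35116 windows of this length. CTGF had 3 matches and ANKRD1 had 2. Over all windows, 1.37% held at least 2 matches and 0.128% at least 3. Shown because they belong to the targets with a match are the windows of CTGF (chr6:131951323-131951622, minus strand), ANKRD1 (chr10:90921038-90921337, minus strand), the second of 2 windows of AMOTL2 (chr3:134374398-134374697, minus strand) and LATS2 (chr13:21061537-21061836, minus strand), each 5′ to 3′ on the gene's strand with the motif in capitals.
CTGF: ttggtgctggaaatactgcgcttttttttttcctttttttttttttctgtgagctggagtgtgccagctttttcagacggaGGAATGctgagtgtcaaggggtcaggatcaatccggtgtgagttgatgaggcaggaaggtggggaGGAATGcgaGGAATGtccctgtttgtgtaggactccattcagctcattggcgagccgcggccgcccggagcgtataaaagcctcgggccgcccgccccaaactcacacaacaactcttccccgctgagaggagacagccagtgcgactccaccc
ANKRD1: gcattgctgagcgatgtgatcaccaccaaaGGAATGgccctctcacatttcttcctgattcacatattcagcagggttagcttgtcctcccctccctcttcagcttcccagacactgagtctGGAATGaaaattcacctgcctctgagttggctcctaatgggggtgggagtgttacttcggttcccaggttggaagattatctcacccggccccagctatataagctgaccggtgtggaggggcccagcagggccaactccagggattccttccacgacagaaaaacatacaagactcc
AMOTL2: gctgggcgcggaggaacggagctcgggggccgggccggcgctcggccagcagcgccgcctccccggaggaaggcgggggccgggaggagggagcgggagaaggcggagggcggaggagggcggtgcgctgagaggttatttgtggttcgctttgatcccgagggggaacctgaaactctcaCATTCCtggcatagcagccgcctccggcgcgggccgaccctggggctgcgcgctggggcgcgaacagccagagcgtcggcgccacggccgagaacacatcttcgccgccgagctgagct
LATS2: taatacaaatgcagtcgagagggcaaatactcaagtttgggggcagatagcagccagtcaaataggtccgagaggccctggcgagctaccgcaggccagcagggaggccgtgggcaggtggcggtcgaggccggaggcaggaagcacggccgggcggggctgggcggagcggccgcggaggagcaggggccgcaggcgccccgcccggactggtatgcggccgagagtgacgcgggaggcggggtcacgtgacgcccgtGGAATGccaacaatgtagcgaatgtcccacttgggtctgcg

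In the CTGF window the matches began 169, 104 and 95 bases before the start site, the last pair being separated by only a few bases. In the ANKRD1 window they began 220 and 128 bases before it, and in the AMOTL2 window 69 bases before it. The match in the LATS2 window began 10 bases after the start site. The fifth window with a match, that of YAP1, had 1, at 162 bases before the start site. The core of the cAMP response element, searched as TGACG and its reverse complement CGTCA, does not overlap the TEAD motif and was found in 3 of the 11 windows, those of LATS2 and AMOTL1 and the first of 2 windows of WWTR1, against 24.6% of all windows. A match is a string of letters and does not show that a factor was bound in these cells.

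The libraries held 17244715 to 23589438 reads, and 1 read was worth 0.0333 to 0.0437 CPM (reads scaled to the size of the library). PKIA, in which reads of the plasmid and of the cells' own gene cannot be told apart, separated the groups by their labels, at 42.3 to 46.1 CPM in PKI and 8.65 to 11.3 CPM in inPKI. All 6 genes listed as expressed in HEK293 averaged at least 1 CPM (summed 270.6 to 305.8 CPM in PKI and 296.7 to 302.9 CPM in inPKI). Of 8 markers of keratinocytes, fibroblasts and leukocytes, 3 averaged at least 1 CPM, and the list summed to 17.5 to 19.7 CPM in PKI and 17.5 to 41.0 CPM in inPKI. The high end was inPKI C, with the keratinocyte keratin KRT5 at 26.5 CPM, against 9.84 to 13.2 CPM in the other 5 libraries. DCN and CD3E were at 0 in all libraries. PKI C stood apart from the other PKI libraries, with a limma sample weight of 0.289, where each of the other 5 had at least 1.05.

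**Figure D1:**
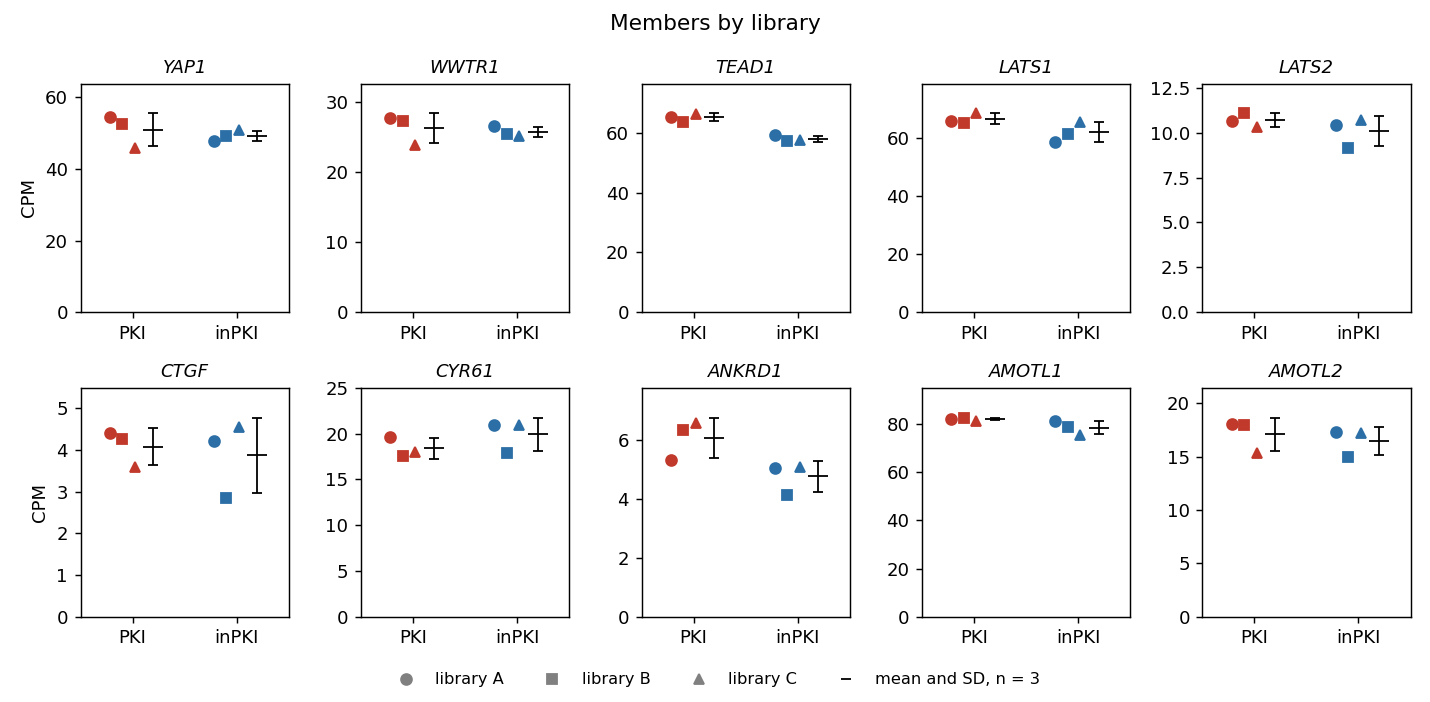
Expression of each of the 10 genes in CPM (axis from 0) by library, PKI on the left and inPKI on the right, with the mean and SD of 3 libraries beside the points. The groups do not overlap in TEAD1, ANKRD1 and AMOTL1, and overlap in the other 7 genes.

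None of the 10 genes reached the threshold (limma adjusted p of 0.05), the smallest adjusted p being 0.199 (TEAD1), in a comparison that called 18 of 14275 genes tested (0.126%). On the recovered reads 0 of the 10 passed by edgeR and 0 by DESeq2. DESeq2 gave no adjusted p for LATS2, CTGF, ANKRD1 and AMOTL2, so these could not pass there. Unadjusted, the limma p of 2 members, TEAD1 and ANKRD1, was below 0.05, both higher in PKI, against 13.7% of all genes. All 10 passed the filter on low values. Their log2 changes ran from -0.11 (CYR61) to 0.30 (ANKRD1), with a median of 0.070, beside a median of -0.0074 over all genes tested. The median of the members was 0.030 without inPKI B and 0.11 without PKI C. In 9 of the 10 the log2 change was above 0, as in 47.4% of all genes. The RNA is that of a whole culture, in which cells with and without the plasmid, and fewer cells or less RNA per cell, cannot be told apart.

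YAP1 (ENSG00000137693.13, chromosome 11, 102110461 to 102233423 on the plus strand), the main effector of the pathway, had 54.5, 52.3 and 45.8 CPM in PKI A, B and C, against 47.9, 49.1 and 50.7 CPM in inPKI A, B and C. The inPKI libraries lay within the range of the PKI libraries. The log2 change was 0.044 ± 0.066 (SE, adjusted p = 0.800), with an interval from -0.097 to 0.18, on the log2(CPM + 1) scale. WWTR1 (ENSG00000018408.14, chromosome 3, 149517235 to 149736714, minus strand), which encodes the YAP paralogue TAZ, had 27.7, 27.2 and 23.8 CPM in PKI, against 26.5, 25.4 and 25.1 CPM in inPKI. Both coactivators shared the order of the PKI libraries, with C lowest. The log2 change of WWTR1 was 0.026 ± 0.070 (adjusted p = 0.892), with an interval from -0.12 to 0.18. The direction of both rested on single libraries: without PKI A the log2 change was -0.0067 for YAP1 and -0.012 for WWTR1, and without PKI B it was -0.00055 for WWTR1.

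TEAD1 (ENSG00000187079.16, chromosome 11, 12674591 to 12944483, plus strand) encodes a TEAD transcription factor, which carries YAP and TAZ to DNA. It had 65.4, 63.7 and 66.2 CPM in PKI, against 59.2, 57.1 and 57.4 CPM in inPKI. Every PKI library lay above every inPKI library, and the spread within each group was small, at 65.1 ± 1.29 CPM in PKI and 57.9 ± 1.13 CPM in inPKI (SD, n = 3 each). These SDs are below what counting of the reads alone gives (1.58 CPM in PKI), so they understate the error. The log2 change was 0.17 ± 0.052 (SE), with an interval from 0.056 to 0.28, and its rank by p was 414 among the 14275 genes. Its adjusted p of 0.199 missed the threshold, and it ranged from 0.0906 to 0.567 over the 18 alternatives, in all of which the log2 change was above 0.

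Of the kinases, LATS1 (ENSG00000131023.12, chromosome 6, 149658153 to 149718256, minus strand) had 65.8, 65.1 and 68.7 CPM in PKI, against 58.7, 61.4 and 65.6 CPM in inPKI. Only inPKI C reached into the PKI range. The log2 change was 0.10 ± 0.057 (SE, adjusted p = 0.437), with an interval from -0.018 to 0.22, and without inPKI A it was 0.067. LATS2 (ENSG00000150457.8, chromosome 13, 20973032 to 21061547, minus strand), which is both a kinase and a target of YAP, had 10.6, 11.1 and 10.3 CPM in PKI, against 10.4, 9.12 and 10.7 CPM in inPKI. The groups overlapped, with inPKI B the lowest of the 6. Its log2 change was 0.078 ± 0.088 (adjusted p = 0.721), and without inPKI B it was 0.014.

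Among the target genes, CTGF (ENSG00000118523.5, chromosome 6, 131948176 to 131951373, minus strand), a secreted matricellular protein used as a readout of YAP, was low in these cells, with 78 to 128 reads per library. It had 4.39, 4.26 and 3.59 CPM in PKI, against 4.21, 2.84 and 4.55 CPM in inPKI. Both the lowest and the highest library were inPKI libraries. The means were 4.08 ± 0.433 CPM in PKI and 3.87 ± 0.903 CPM in inPKI (SD, n = 3 each), where counting alone gives an SD of 0.398 and 0.387 CPM. The log2 change of 0.076 ± 0.14 (SE, adjusted p = 0.846) had an interval from -0.23 to 0.38, the widest among the 10 members. Without inPKI B the log2 change was -0.086.

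CYR61 (ENSG00000142871.16, chromosome 1, 85580761 to 85583962, plus strand), a relative of CTGF and likewise secreted, was the member whose log2 change was below 0. It had 19.7, 17.6 and 18.0 CPM in PKI, against 21.0, 17.9 and 21.0 CPM in inPKI. The library inPKI B lay among the PKI libraries. Its log2 change was -0.11 ± 0.080 (SE, adjusted p = 0.565), with an interval from -0.28 to 0.062, and it was below 0 in all 18 alternatives, at -0.18 without inPKI B. The library with the most KRT5, inPKI C, was the highest inPKI library for CTGF and was level with inPKI A for CYR61. It was also the highest of its group for YAP1, LATS1, LATS2 and, by little, ANKRD1 (5.09 CPM, against 5.07 CPM in inPKI A). For WWTR1 and AMOTL1 it was the lowest of its group, and for TEAD1 and AMOTL2 it lay between inPKI A and inPKI B. The part of keratinocyte RNA in these values was not tested, and without inPKI C the log2 change was 0.18 for CTGF (adjusted p = 0.682) and -0.071 for CYR61 (adjusted p = 0.796).

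ANKRD1 (ENSG00000148677.6, chromosome 10, 90912096 to 90921276, minus strand), which encodes a nuclear ankyrin repeat protein best known from heart muscle, had the largest log2 change of the 10. It had 5.32, 6.36 and 6.60 CPM in PKI, against 5.07, 4.16 and 5.09 CPM in inPKI, which was 114 to 191 reads per library. The groups did not overlap, but PKI A exceeded the highest inPKI library only by less than the counting SD of 0.483 CPM. The means were 6.09 ± 0.682 CPM in PKI and 4.77 ± 0.532 CPM in inPKI (SD, n = 3 each), a ratio of 1.28. The log2 change was 0.30 ± 0.11 (SE), with an interval from 0.052 to 0.54 and an adjusted p of 0.285, which missed the threshold. Over the 18 alternatives the log2 change ran from 0.18 to 0.38. The adjusted p ran from 0.181 to 0.660, with none given by DESeq2.

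AMOTL1 and AMOTL2 encode angiomotin-like proteins, which bind YAP at cell junctions and the actin cytoskeleton and keep it out of the nucleus, and AMOTL2 is also a YAP target. AMOTL1 (ENSG00000166025.17, chromosome 11, 94706431 to 94876753, plus strand) had 82.4, 82.6 and 81.5 CPM in PKI, against 81.2, 79.0 and 75.6 CPM in inPKI. The groups did not overlap, with a gap between the nearest libraries smaller than the counting SD of 1.78 CPM. The log2 change was 0.064 ± 0.052 (SE, adjusted p = 0.599), and without inPKI C it was 0.037. AMOTL2 (ENSG00000114019.14, chromosome 3, 134355874 to 134375479, minus strand) had 18.0, 18.0 and 15.3 CPM in PKI, against 17.3, 14.9 and 17.2 CPM in inPKI. The groups overlapped over most of their range. Its log2 change was 0.051 ± 0.086 (adjusted p = 0.823), and without inPKI B it was -0.015.

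**Figure D2:**
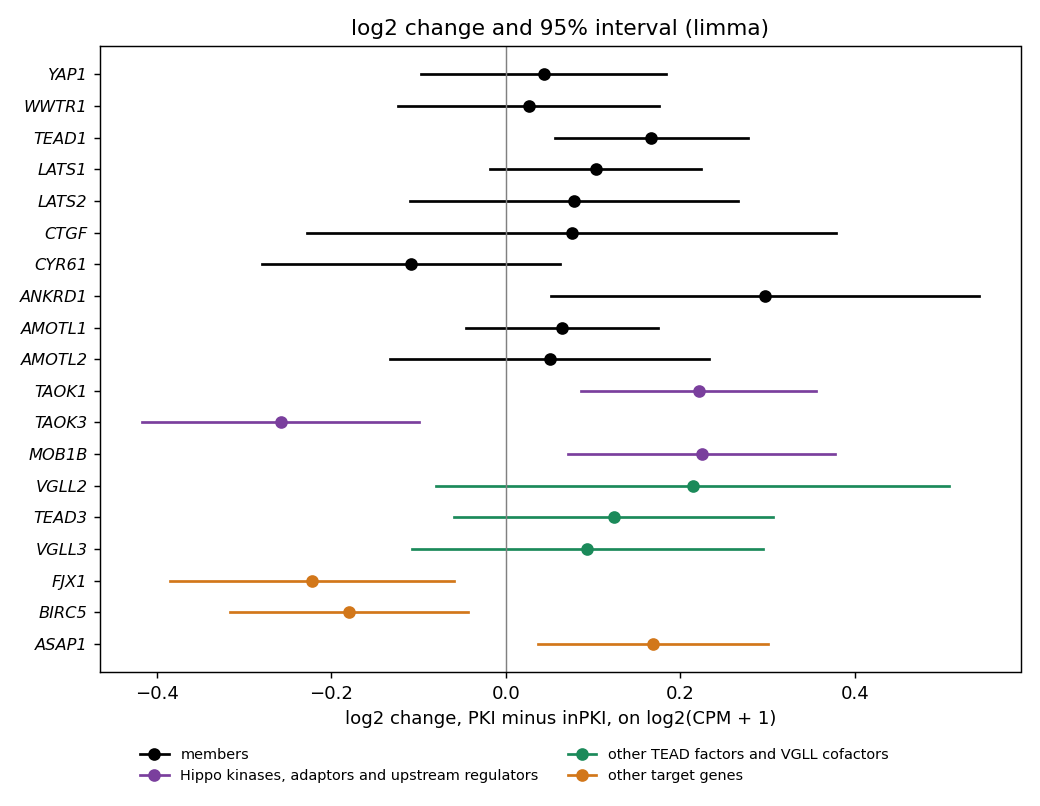
The log2 change (PKI minus inPKI, on log2(CPM + 1)) of the 10 members and of the 9 genes named from the other lists, as points with 95% intervals from limma, before any adjustment for the number of genes. Among the members the intervals of TEAD1 (0.056 to 0.28) and ANKRD1 (0.052 to 0.54) lie above 0, and no gene shown passed the adjusted threshold.

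In 3 of the 10 members (TEAD1, ANKRD1 and AMOTL1) every PKI library was above every inPKI library, against 10.9% of all genes tested, and in 0 members every PKI library was below, against 8.88%. For a single gene, the smallest p that an exact permutation test can give with 3 against 3 is 0.1. The same libraries were low or high in many members: inPKI B was the lowest of its group in 6 of the 10 members and inPKI C the highest in 6, while in PKI, C was the lowest in 6 and A the highest in 5. Because the members share libraries, these counts are not independent across genes. The median log2 deviation from the rest of the group was also taken, over the members and over all genes tested. It was -0.11 and -0.0024 for inPKI B, and 0.10 and -0.0046 for inPKI C. In PKI it was 0.061 and 0.018 for A, and -0.056 and -0.064 for C.

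The other genes of the pathway were taken from 3 lists. Of 20 kinases, adaptors and upstream regulators, all of them tested, 0 passed in limma, which called 18 over all genes. DESeq2 called 1 of the 20, beside 216 over all genes. At an unadjusted limma p below 0.05 there were 5 higher and 1 lower, and the median log2 change of the list was 0.051. Over all genes tested the unadjusted counts were 1075 higher and 879 lower (13.7% together), and the median was -0.0074. In 6 of the 20 every PKI library was above every inPKI library, against 10.9% of all genes. In 1 every PKI library was below, against 8.88%. Most genes of this list have at least 7357 bases of exon, and the median of all tested genes that long was 0.061. In 25.5% of the tested genes that long every PKI library was above. TAOK1, a kinase that activates the upstream Hippo kinases, had 104.5, 103 and 120.4 CPM in PKI, against 96.1, 89.7 and 94.7 CPM in inPKI. The PKI libraries were all higher, and the log2 change was 0.22 ± 0.063 (SE, adjusted p = 0.172 in limma and 0.0408 by DESeq2, the smallest of a range up to 0.552 over the alternatives). With the trend on gene length removed, as described with the lengths of the members, the log2 change of TAOK1 was 0.11 (adjusted p = 0.436). Its paralogue TAOK3 had 18.4, 16.2 and 16.0 CPM in PKI, against 20.4, 19.7 and 20.9 CPM in inPKI, a log2 change of -0.26 ± 0.074 (adjusted p = 0.172). The PKI libraries were all lower, so these paralogues stood on opposite sides of 0. MOB1B, an adaptor that helps activate LATS kinases, had 28.6, 30.9 and 32.2 CPM in PKI, against 27.0, 27.4 and 23.8 CPM in inPKI (log2 change 0.22 ± 0.072, adjusted p = 0.210). With the length trend removed the log2 change was -0.32 for TAOK3 (adjusted p = 0.164) and 0.18 for MOB1B (adjusted p = 0.357).

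Of 7 other TEAD factors and VGLL cofactors, which bind TEAD factors in place of or beside YAP, 6 were tested and 0 passed, with 0 at an unadjusted p below 0.05. VGLL2 averaged 2.21 ± 0.292 CPM in PKI and 1.77 ± 0.199 CPM in inPKI (log2 change 0.21 ± 0.14, SE, adjusted p = 0.504). TEAD3 averaged 9.93 ± 0.521 CPM in PKI and 9.03 ± 0.190 CPM in inPKI, and VGLL3 averaged 7.94 ± 0.660 CPM in PKI and 7.37 ± 0.167 CPM in inPKI (SD, n = 3 each). Their adjusted p was 0.538 and 0.683. The groups of TEAD3 and VGLL3 did not overlap, 2 of the 6 tested, against 10.9% of all genes with PKI higher. Those of VGLL2 overlapped. The nearest libraries were at 9.45 and 9.18 CPM for TEAD3 and at 7.52 and 7.49 CPM for VGLL3. Both gaps were smaller than the counting SD in PKI (0.620 and 0.551 CPM). With the length trend removed the log2 change went from 0.12 to 0.17 for TEAD3 and from 0.094 to 0.0075 for VGLL3. VGLL1 was below the filter, at no more than 0.0292 CPM on average in either group.

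Of 22 other target genes, 17 were tested and 0 passed in limma, edgeR or DESeq2. DESeq2 gave no adjusted p for the member AMOTL2 (350 to 540 reads per library). Several of these targets had fewer reads, such as MYOF (53 to 93). They may likewise have had none, so that they could not pass there, which was not counted. At an unadjusted limma p below 0.05 there were 3 higher and 2 lower, against 13.7% of all genes in either direction. The median log2 change was -0.015, beside -0.0074 over all genes, with 7 above 0 and 10 below, where 47.4% of all genes were above 0. FJX1, which encodes a secreted protein, had 17.3, 16.6 and 15.3 CPM in PKI, against 19.0, 18.3 and 20.7 CPM in inPKI (log2 change -0.22 ± 0.076, SE, adjusted p = 0.233). BIRC5, which encodes survivin and is also a gene of dividing cells, had 136.7, 145.7 and 121.8 CPM in PKI, against 157, 151.9 and 148 CPM in inPKI (log2 change -0.18 ± 0.064, adjusted p = 0.252). Without PKI C the log2 change of BIRC5 was -0.11. In FJX1 and BIRC5 all PKI libraries lay below all inPKI libraries. That held for 4 of the 17 targets tested, against 8.88% of all genes. In 2 of the 17 all PKI libraries lay above, against 10.9% of all genes. ASAP1, a regulator of ARF GTPases, averaged 73.1 ± 4.49 CPM in PKI and 64.9 ± 3.80 CPM in inPKI (log2 change 0.17 ± 0.062, adjusted p = 0.263). With the length trend removed the log2 change was -0.16 for FJX1, -0.15 for BIRC5 and 0.13 for ASAP1. Among those below the filter were AXL, IGFBP3, EDN1 and AREG, several of them strong YAP targets in other cell types.

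Levels were then compared per length, as CPM per kilobase of summed exon length, which corrects roughly for the size of the genes but not for which isoform is used. By the mean of all 6 libraries, the order of the 10 from high to low was AMOTL1, YAP1, CYR61, LATS1, TEAD1, WWTR1, AMOTL2, ANKRD1, LATS2 and CTGF. The order differed between the groups: in PKI, LATS1 (7.70) stood above CYR61 (7.50) and ANKRD1 (3.08) above AMOTL2 (2.86), and in inPKI CYR61 (8.13) stood highest. AMOTL1 averaged 8.19 in PKI and 7.83 in inPKI, and CTGF 1.75 in PKI and 1.65 in inPKI (CPM per kilobase). Neighbours in this order overlapped over the 6 libraries except at the steps from LATS1 to TEAD1, from TEAD1 to WWTR1 and from ANKRD1 to LATS2. On this scale YAP1 stood at percentile 67.8 of the tested genes, CYR61 at percentile 67.2 and CTGF at percentile 27.1. CYR61 was 4.27, 3.93 and 4.78 times CTGF in PKI A, B and C, against 4.75, 5.98 and 4.40 times in inPKI A, B and C.

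**Figure D3:**
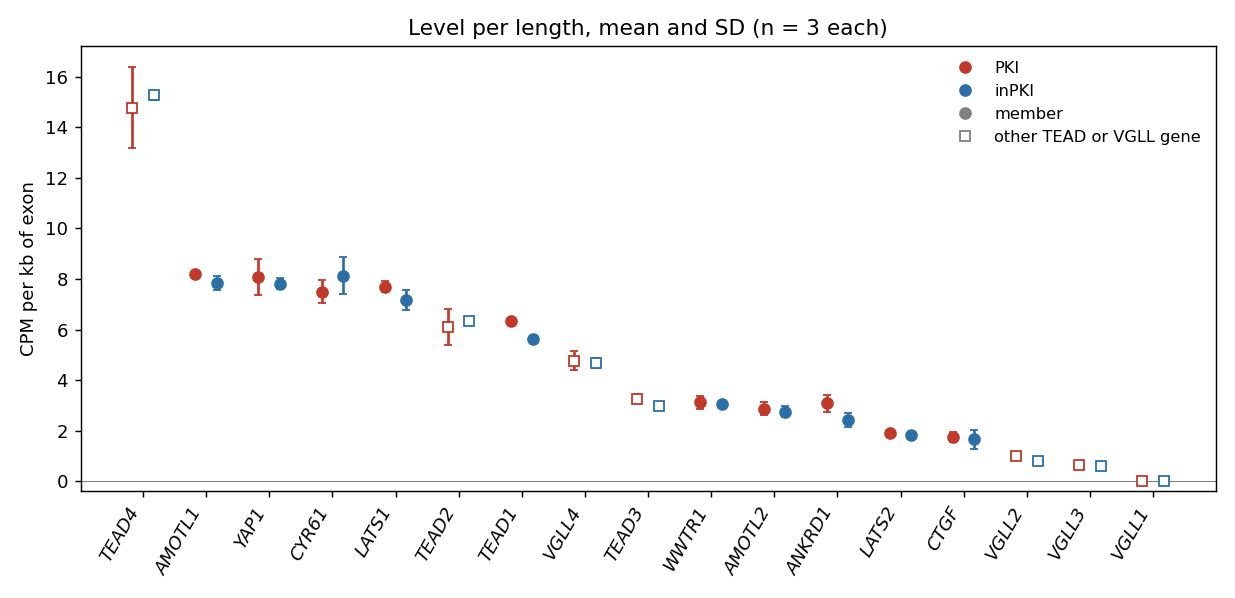
Mean level per length in CPM per kilobase of exon, with the SD over 3 libraries, in PKI (red, left of each pair) and inPKI (blue), for the 10 members (filled circles) and for the other TEAD and VGLL genes (open squares), ordered by level. TEAD4 stands highest, at 14.8 in PKI and 15.3 in inPKI, and TEAD1 at 6.33 in PKI and 5.63 in inPKI.

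In 3 pairs of paralogues, YAP1 and WWTR1, LATS1 and LATS2, and AMOTL1 and AMOTL2, the first gene was the higher one in every library. Per length, YAP1 was 2.63, 2.57 and 2.57 times WWTR1 in PKI A, B and C, against 2.41, 2.58 and 2.69 times in inPKI A, B and C. LATS1 was 4.03 ± 0.252 times LATS2 in PKI and 3.98 ± 0.354 times in inPKI, and AMOTL1 was 2.88 ± 0.255 times AMOTL2 in PKI and 2.86 ± 0.271 times in inPKI (SD, n = 3 each). In these 3 ratios the groups overlapped. TEAD1 made up 20.4%, 19.1% and 23.1% of the summed level per length of TEAD1 to TEAD4 in PKI, against 18.9%, 18.4% and 18.6% in inPKI. That share did not overlap between the groups, though PKI B (19.1%) and inPKI A (18.9%) nearly met, and its highest value was that of PKI C. TEAD1 has 10279 bases of exon, against 2272 to 3046 for TEAD2, TEAD3 and TEAD4. The log2 change ran with length over all genes, and its part in the share was not tested. Per length, TEAD4 was the highest of the 4 TEAD genes in both groups. In CPM, not divided by length, TEAD1 was the highest, at 65.1 in PKI and 57.9 in inPKI, against 33.6 and 34.7 for TEAD4.

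The log2 change ran with gene length over the whole table. Its median was -0.083 in the 3560 genes with the least summed exon length (up to 2977 bases) and 0.061 in the 3558 with the most (from 7357 bases). Every PKI library was above every inPKI library in 3.76% of those short genes and in 25.5% of those long genes. CTGF, CYR61 and ANKRD1 belong to the short genes and WWTR1, TEAD1, LATS1 and AMOTL1 to the long ones. Genes within 0.1 of TEAD1 in log2 length (n = 632) had a median log2 change of 0.064, and those near AMOTL1 (n = 642) 0.057, against 0.17 for TEAD1 and 0.064 for AMOTL1 themselves. Genes near ANKRD1 (n = 444) had a median of -0.077, against 0.30 for ANKRD1. With the length trend removed, the log2 change was 0.10 for TEAD1 (adjusted p = 0.390), 0.0052 for AMOTL1, -0.014 for WWTR1, 0.14 for CTGF, -0.048 for CYR61 and 0.37 for ANKRD1 (adjusted p = 0.299). The part of length in these results cannot be told apart from an effect of PKI on long genes, since the trend runs with the groups.

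**Figure D4:**
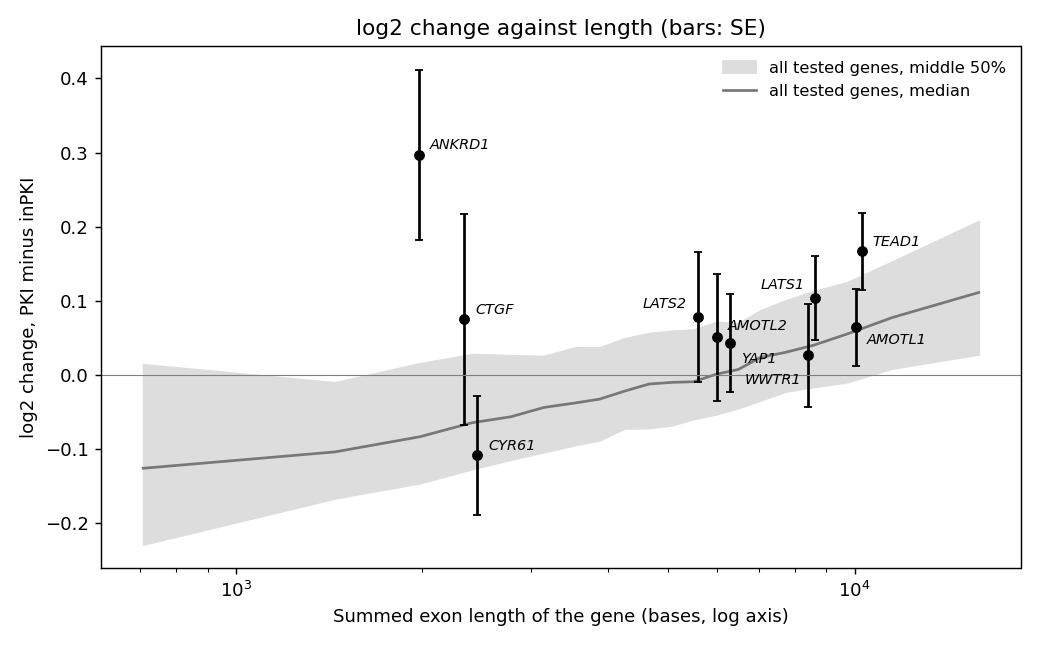
The log2 change (PKI minus inPKI) against summed exon length (log axis) for the 10 members, as points with SE, over the median and the middle 50% of all tested genes in bins of length. The median of all genes rises with length, AMOTL1 (0.064) and WWTR1 (0.026) lie near it, and ANKRD1 (0.30) lies above the band.

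The genes nearest in profile to the main readouts are given as a description. Over the 6 libraries, among 11061 tested genes with a mean of at least 5 CPM, the smallest root mean square difference from the centred log2 profile of CTGF was that of PIM1 (0.053), followed by NKAIN1 (0.060) and PPP2R5B (0.065), beside a median of 0.19 over all genes. PIM1 had 11.7, 11.1 and 10.2 CPM in PKI, against 10.8, 8.61 and 11.7 CPM in inPKI, with inPKI B lowest as in CTGF. Of the other members AMOTL2 was nearest to CTGF (0.10) and ANKRD1 farthest (0.20). Nearest to CYR61 were SOWAHA (0.029), SNX15 (0.031) and COX10 (0.032), beside a median of 0.13. CYR61 was not among the genes nearest to CTGF, at 0.15. CTGF averaged below 5 CPM and so was not compared as a neighbour of CYR61.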

How the data were processed

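RNA of 6 HEK293 libraries was measured, 3 per group, grouped by their titles. Per the submitters' processing notes, which give no roles, the tools included STAR 2.5.2b and RSEM 1.3.0, besides cutadapt 1.14 and also DESeq2 1.20.0, with hg19 as the build. The authors deposited CPM values for 30960 genes, scaled with TMM factors per the file name, and these values were used as deposited. All of them (100%, tolerance 0.01 reads) were whole multiples of the smallest value of their column, which gave the read counts behind the deposited CPM. The authors' deposited table of their own comparison has these columns per the file headers: the mean signal called baseMean, the log2 fold change and its SE, the statistic of the test (a score), its p-value before and after adjustment, and the fold change with a sign (a score). Its log2 fold change and its signed fold change had opposite signs in all 30960 rows, and the log2 change is printed here as PKI over inPKI.

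Values were analysed as log2(CPM + 1) for the 14275 genes with at least 1 CPM in at least 3 libraries. The linear model of limma 3.58.1 in R 4.3.3 was used (trend, 2-sided). The p-values of all 14275 genes were adjusted together by Benjamini-Hochberg, and every adjusted p is from limma unless stated. The pseudocount understates the change of low genes. Intervals cover 95%.

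The members and gene lists were chosen with earlier results of these data known. Named besides the members were up to 3 genes of each list with the smallest p, PKIA, and the 3 genes nearest in profile to CTGF and to CYR61. Gene positions and summed exon lengths come from GENCODE 29 on GRCh38, by gene identifier (30772 matched), and promoter windows from RefSeq on GRCh38.p14, so neither describes the authors' hg19 alignment. The tests were tried on simulated counts first. Alternatives were pseudocounts of 0.25 and 5, no filter, a filter of 5 CPM, 2 rescalings, a replicate block, limma without trend, sample weights, the recovered reads tested with edgeR 4.0.16 or with DESeq2 1.42.0, each library left out, and, chosen after seeing the data, removal of the length trend (lowess, span 0.3). Letters were not treated as pairs, because the labels state no pairing. Deviations of same-letter libraries correlated at 0.014 to 0.028 across genes, and those of different letters at -0.022 to 0.010. Genes are not independent replicates, so these values do not decide whether letters are pairs.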

Additional observations from a re-analysis of the deposited data

How the results depend on the processing

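None of the 10 members passed the threshold under any of the 18 alternatives, and the number of other target genes called was likewise 0 under each. By DESeq2, the members LATS2, CTGF, ANKRD1 and AMOTL2 had no adjusted p and so could not pass. Target genes with fewer reads than AMOTL2 may have had none either, which was not counted. Of the upstream list DESeq2 called 1 gene (TAOK1, adjusted p = 0.0408) and every other alternative 0. Directions that turned, all of members that did not pass, were those of YAP1 (-0.0067) and WWTR1 (-0.012) without PKI A, WWTR1 without PKI B (-0.00055) and with the length trend removed (-0.014), and CTGF (-0.086) and AMOTL2 (-0.015) without inPKI B. With 1 library left out the log2 change ranged up to 0.12 for YAP1, 0.092 for WWTR1, 0.18 for CTGF and 0.12 for AMOTL2. Among all genes 18 were called, against 216 by DESeq2, 144 with sample weights, 11 by edgeR, 11 with equal-sum scaling, 11 with median-ratio scaling, 10 with the length trend removed, 4 without a trend, 4 with no filter, and 9 to 114 with 1 library left out. With the replicate letter as a block it was 124, a replicate block for which the labels state no pairing, and the cause of these shifts was not tested. The low reads per library of CTGF (78 to 128) and ANKRD1 (114 to 191) limit what can be seen of them, and a filter of 5 CPM leaves CTGF out.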

Other observations

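The authors' deposited table, in which 2069 genes at 0 in all 6 libraries have a baseMean above 0, so that its values do not come from these libraries alone, gives the same directions for all 10 members. Its log2 changes, turned to PKI over inPKI, were 0.18 ± 0.11 for TEAD1, 0.37 ± 0.30 for ANKRD1 and -0.10 ± 0.10 for CYR61 (SE), and its DESeq2 adjusted p was 0.9999 for each of the 10. It is the authors' own comparison of these groups, so the same direction there is no independent evidence.

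In the authors' deposited table the baseMean of CTGF was 1257, that of CYR61 5490 and that of AMOTL2 4496, while the mean reads over the 6 libraries were 104.2, 501.3 and 441. The baseMean was thus 12.1 times the mean reads for CTGF, 10.9 times for CYR61 and 10.2 times for AMOTL2, against a median of 0.716 over the tested genes. The same ratio was 2.51 for YAP1, 2.08 for AMOTL1, 1.97 for LATS2 and 1.65 for TEAD1, and 0.465 for ANKRD1, 0.598 for LATS1 and 0.766 for WWTR1, so that it was above that median in 8 of the 10 members. KRT5 had a baseMean of 316371 and a ratio of 879. The library inPKI C held 26.5 CPM of KRT5 and 12.2 CPM of KRT14. The baseMean of the members was 0.0209% (ANKRD1) to 1.74% (CYR61) of that of KRT5. At these proportions the KRT5 of inPKI C would go with 0.105 CPM of CTGF, 0.459 CPM of CYR61 and 0.276 CPM of YAP1. The measured values there were 4.55, 21.0 and 50.7 CPM. The group means were 4.08 CPM in PKI and 3.87 CPM in inPKI for CTGF. They were 18.41 and 19.96 CPM for CYR61, and 50.87 and 49.21 CPM for YAP1. The baseMean does not come from these libraries alone, so its proportions need not be those of the source of the keratin reads. Values at these proportions therefore do not show how much of a member's level or group difference came with the keratin reads. Whether the keratin reads came with other genes in these proportions, and their source, was not tested.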
